A study of Rattus norvegicus with 30 samples.

Results

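The transcripts described here were 26 genes of rat brain tissue that stood higher in saline rats without foot-shocks than in shock-sensitive and yoked rats. They were selected on measured levels: a gene was a member when its level in each of the 7 control (CT) libraries exceeded its level in each of the 16 libraries of the shock-sensitive (SS), yoked shock-resistant (YSR) and yoked shock-sensitive (YSS) groups, with at least 30 counts summed over CT. Levels are CPM, the counts of a gene per 1000000 counts of its library. Of the 32552 genes in the tables, 16579 had the CT minimum, and 26 of these, or 0.157%, were members. The opposite order, lower in each CT library than in each of the 16 libraries, was seen for 0 of 17952 genes with at least 30 counts summed over the 16 libraries. Because CT, SS, YSR and YSS values chose the members, their contrast is given as a description with no test, and the shock-resistant (SR) libraries were the group that the choice did not use.

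The study asked how methamphetamine (METH) taking despite punishment relates to brain gene expression in adult, wild type, male Sprague Dawley rats. SR and SS rats took METH by lever press for 21 days and then for 8 more days in which presses could bring a foot-shock, and SR rats kept pressing whereas SS rats cut down. CT rats received saline and no shocks, while YSR and YSS rats received saline and shared each shock of an SR or SS partner, respectively. All groups shared the jugular catheter and the lever sessions, and there was no METH group without shocks. Each library came from poly(A)-selected RNA of dissected whole tissue of 1 rat, and there were 7 CT, 7 SR, 6 SS, 5 YSR and 5 YSS libraries with 14584340 to 19997820 counts each. In bulk tissue, fewer cells of a type and less RNA per cell cannot be told apart.

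The tissue field of the sample records reads dorsal striatum, whereas their treatment text and the study's methods give the hippocampus. The time of tissue collection is given in the sources both as 2 h after the last session and as directly after it. The tables hold Ensembl identifiers without gene symbols, and 0 identifiers could be paired with a symbol, so that neither the brain region nor a liver, blood, choroid plexus or meningeal origin could be checked against the 80 marker genes on 7 lists. The members are therefore named by their choice as transcripts higher in CT than in SS, YSR and YSS. A contribution of RNA from liver or blood to these libraries was not tested. Titles also carry a cohort, XII or XIII, and a code starting with the letter L or R, whose meanings are not given in the sources used here. The 7 CT libraries included 1 of cohort XII and 2 of letter L, against 4 and 3 of the 7 SR libraries, 2 and 4 of the 6 SS libraries, 3 and 0 of the 5 YSR libraries, and 1 and 3 of the 5 YSS libraries. Libraries were sequenced on a pair of flowcell lanes, and which library ran on which lane is not given either. One CT library, XIII-L11, stood apart in its chromosome Y total, at 139 CPM against 190 to 248 CPM in the other 29, and the same 26 genes were found without it.

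Among the members were 3 neighbouring genes in the interval on chromosome 2 that the selection named as the fibrinogen locus. Fibrinogen is the soluble plasma protein that thrombin turns into fibrin during blood clotting. It is built from alpha, beta and gamma chains, which the genes Fga, Fgb and Fgg encode side by side. Hepatocytes make and secrete it under the control of liver-enriched factors such as HNF1 and C/EBP, and acute-phase signals raise its synthesis. The promoters of these genes are shown because the 3 genes of the interval moved together in the libraries below. Each run covers 250 bases before and 50 bases after the RefSeq start on the GRCr8 build, in the direction of transcription, and capitals mark GTTAAT, the core of the HNF1 motif, read on either strand. The intervals are chr2:170652833-170653132 on the plus strand for Fgg, chr2:170671919-170672218 on the plus strand for Fga and chr2:170700826-170701125 on the minus strand for Fgb.
Fgg: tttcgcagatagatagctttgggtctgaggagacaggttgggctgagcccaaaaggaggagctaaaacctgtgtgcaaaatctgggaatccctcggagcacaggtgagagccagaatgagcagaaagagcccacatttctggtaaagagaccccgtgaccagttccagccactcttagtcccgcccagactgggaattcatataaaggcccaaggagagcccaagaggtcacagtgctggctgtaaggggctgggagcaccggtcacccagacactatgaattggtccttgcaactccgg
Fga: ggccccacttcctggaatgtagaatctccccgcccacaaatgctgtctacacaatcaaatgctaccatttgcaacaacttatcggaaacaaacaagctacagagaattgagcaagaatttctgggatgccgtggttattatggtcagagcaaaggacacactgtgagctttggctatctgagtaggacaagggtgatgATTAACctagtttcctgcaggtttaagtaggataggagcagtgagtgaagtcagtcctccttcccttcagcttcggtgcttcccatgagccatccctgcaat
Fgb: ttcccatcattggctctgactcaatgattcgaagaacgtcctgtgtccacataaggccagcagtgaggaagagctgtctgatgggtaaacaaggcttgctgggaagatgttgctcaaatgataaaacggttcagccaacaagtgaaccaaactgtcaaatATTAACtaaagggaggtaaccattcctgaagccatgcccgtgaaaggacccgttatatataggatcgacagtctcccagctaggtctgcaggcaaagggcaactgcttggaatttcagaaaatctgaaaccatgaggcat
The core was found once in the Fga promoter, at -52 from the start, and once in the Fgb promoter, at -90, and it was not in the Fgg window. It occurred in 7.45% of 33469 promoters of the same length. An HNF4A motif, CAAAGTCCA, and a C/EBP motif, TTGCGCAA, were in 0 of the 3 windows and in 0.391% and 0.170% of all promoters. These matches describe letters and not bound sites. RefSeq lists Fgg, Fga and Fgb in this order with no gene between them, and the 3 members were likewise consecutive in the tables, with strands plus, plus and minus. The tables' genome build is not given in the sources used here, and which identifier belongs to which chain was not assigned.

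In the coordinates of the tables, the 3 members were ENSRNOG00000025074 at chr2:181987217-181994514, ENSRNOG00000024848 at chr2:182006242-182013763 and ENSRNOG00000007092 at chr2:182027115-182038178. ENSRNOG00000007092 had 71, 69, 95, 119, 115, 121 and 109 counts in CT libraries XIII-L11, XIII-L12, XIII-R05, XIII-R06, XIII-R11, XIII-R12 and XII-R11. It had 0 or 1 count in each of the 16 SS, YSR and YSS libraries, 5 counts in all. The gene was thus near absence in every shocked SS or yoked library and well above the floor of 3 counts in every CT library. ENSRNOG00000024848 had 31, 27, 39, 60, 53, 51 and 44 counts in the same CT libraries against 0 to 8 in the 16 libraries. ENSRNOG00000025074 had 17, 24, 30, 48, 42, 39 and 47 counts in CT against 0 to 3. Per kilobase of gene length, a scale on which genes can be compared, mean CT levels were 1.96 CPM per kb for ENSRNOG00000007092, 1.29 for ENSRNOG00000025074 and 0.906 for ENSRNOG00000024848.

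In SR, the 3 genes were present in some rats and nearly absent in others. ENSRNOG00000007092 had 101 counts in SR XIII-L09, 65 in XII-L05 and 71 in XII-L07, but 0 in XIII-R07, 0 in XIII-R09, 1 in XII-R05 and 0 in XII-R07. The SR libraries of letter L thus lay near the CT level and those of letter R at the level of the 16 libraries. ENSRNOG00000024848 had 49, 29 and 41 counts in the SR libraries XIII-L09, XII-L05 and XII-L07 and 0 or 1 in the other 4. ENSRNOG00000025074 had 51, 18 and 27 counts in the same 3 libraries and 0 to 3 in the other 4. The nearest genes on either side did not share the difference between CT and the 16 libraries, and their SR levels are not given here. ENSRNOG00000006655, which begins just beyond the interval, had 35.6 ± 0.929 CPM (SD, n = 7) in CT and 36.0 ± 2.55 CPM (SD, n = 16) in the 16 libraries. On the other side, ENSRNOG00000025608 had 0.383 ± 0.211 CPM (SD, n = 7) and 0.300 ± 0.243 CPM (SD, n = 16), and its groups overlapped. Its lowest CT level, 0.176 CPM, was at the floor of 3 counts, so that this gene says little.

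**Figure D1:**
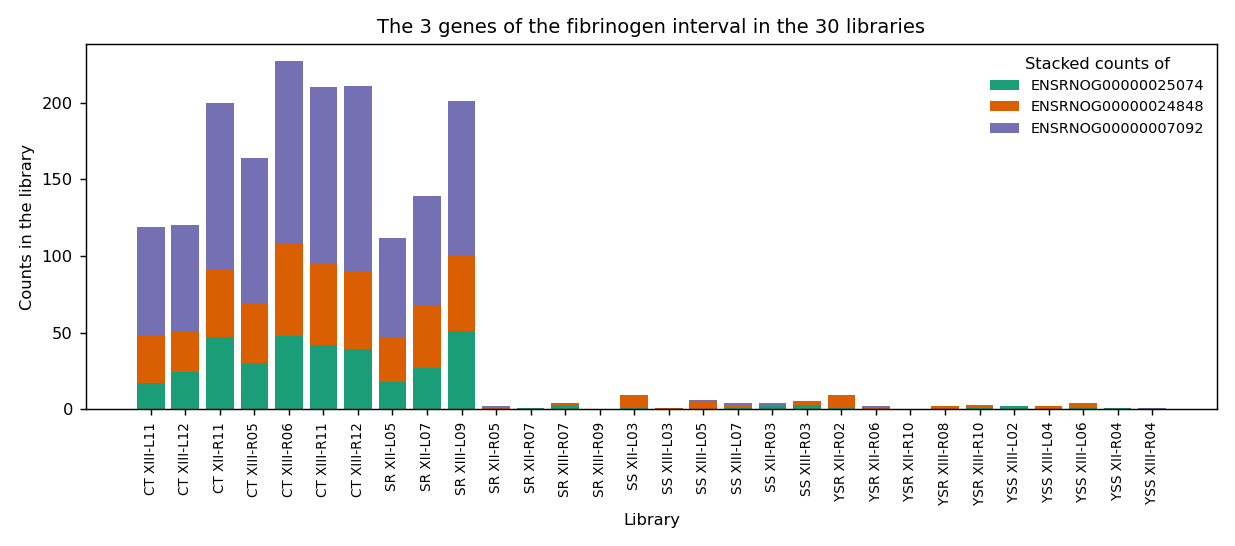
Stacked counts of the 3 genes of the fibrinogen interval (vertical axis, counts in the library) in each of the 30 libraries (horizontal axis, by group, with letter L before letter R). The 7 CT libraries hold 119 to 227 counts and the 3 SR libraries of letter L hold 112 to 201, whereas the other 20 libraries hold 0 to 9.

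The proportions between the 3 genes were close to constant wherever they were present. ENSRNOG00000007092 took 52.4 to 59.7% of their summed counts in CT and 50.2 to 58.0% in the 3 SR libraries of letter L. ENSRNOG00000024848 took 22.0 to 26.4% and 24.4 to 29.5%, and ENSRNOG00000025074 took 14.3 to 23.5% and 16.1 to 25.4%. Over the 7 CT libraries the spread of these shares was within counting noise, with a chi-square per degree of freedom of 0.519, where 1 is the value that counting noise alone gives.

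The other members lay on many chromosomes, 16 in all with the mitochondrial genome and an unplaced scaffold included. Of the 26 members, 24 lay outside the mitochondrial genome and 2 were mitochondrial features of 69 and 64 bases, ENSRNOG00000032274 and ENSRNOG00000029070. Short features were common, since 6 of the 26 members (23.1%) were shorter than 310 bases against 3.69% of the genes with the CT minimum. The limit of 310 bases was not among the planned choices. It lies just above the longest of these 6, at 301 bases, so that the 2 shares are a description only. The overlap of 4 members with another gene makes their counts uncertain. Mean CT levels of the 24 members ran from 0.283 to 14.5 CPM.

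The members differed in how far they fell outside CT. For 12 of the 26, no SS, YSR or YSS library held more than 3 counts, and 2 of these, ENSRNOG00000006675 and ENSRNOG00000051644, had 0 counts in each of the 16 libraries. These 2 were singled out after their values were seen. Another 8 members had more than 3 counts in each of the 16 libraries, and their ratio of the CT mean to the mean of the 16 libraries had a median of 4.17 and ran from 1.42 to 11.4. The remaining 6 had more than 3 counts in some of the 16 libraries and 3 or fewer in others, so that their levels outside CT rest on few counts.

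ENSRNOG00000002911 (chr14:19176277-19191863) was the most abundant member outside the mitochondrial genome. It had 149, 158, 351, 359, 278, 218 and 302 counts in CT, in the library order above, and 14.5 ± 4.19 CPM (SD, n = 7). In the 16 libraries it stayed readily detectable at 2.25 to 5.09 CPM. ENSRNOG00000013704 (chr9:74124016-74236274) had 95 to 224 counts in CT and a mean of 9.69 ± 2.67 CPM (SD, n = 7), against 1.05 to 2.95 CPM in the 16 libraries. ENSRNOG00000018257 (chr1:170423483-170431073) had 62 to 198 counts and 6.50 ± 2.81 CPM (SD, n = 7) in CT, against 0.264 to 1.09 CPM. Both kept a low level outside CT, unlike the gene with the highest count in the fibrinogen interval.

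ENSRNOG00000005542 (chr6:33176778-33224997) had 77, 60, 114, 131, 109, 110 and 121 counts in CT and 0 to 6 in the 16 libraries. Its mean was 5.82 ± 1.27 CPM (SD, n = 7) in CT and 0.189 ± 0.111 CPM (SD, n = 16) outside it on 54 counts in all, and 2 of the 16 libraries had none. ENSRNOG00000002783 (chr13:78805347-78833192) was at the other end, with 5.53 ± 0.689 CPM (SD, n = 7) in CT and 3.56 ± 0.381 CPM (SD, n = 16) in the 16 libraries, a ratio of 1.55. The last 3 of the abundant members fell between these. ENSRNOG00000057527 (chr5:58994682-58994953, 272 bases long) had 3.45 ± 0.663 CPM (SD, n = 7) in CT against 0.419 to 1.17 CPM. ENSRNOG00000012458 (chr1:213511874-213535542), which overlaps another gene, had 3.0 ± 1.1 CPM (SD, n = 7) against 0.113 to 1.0 CPM. ENSRNOG00000006807 (chr5:64805773-64818824) had 2.92 ± 0.566 CPM (SD, n = 7) against 0.466 to 1.0 CPM. Their ratios of means were 4.41, 5.82 and 4.51.

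The mitochondrial member ENSRNOG00000032274 had the highest level of the 26 and the smallest ratio. It had 26.2 ± 2.91 CPM (SD, n = 7) in CT and 18.5 ± 2.13 CPM (SD, n = 16) in the 16 libraries, a ratio of 1.42. Because it alone held 3240 of the 12646 CT counts of the members, sums are given below for the 24 members outside the mitochondrial genome and for the 2 mitochondrial members apart.

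The summed level of the 24 members was 74.3 ± 16.1 CPM (SD, n = 7) in CT. It was 12.3 ± 1.31 CPM (SD, n = 6) in SS, 12.6 ± 0.892 CPM (SD, n = 5) in YSR and 12.6 ± 1.56 CPM (SD, n = 5) in YSS. Within CT, the 2 libraries of letter L held 51.0 and 53.0 CPM and the 5 of letter R held 73.9 to 90.5 CPM, without overlap. An exact two-sided test of 2 against 5 libraries cannot give a p below 0.0952. The 7 SS and YSS libraries of letter L held 11.9 to 13.7 CPM. This lay within the 9.99 to 15.4 CPM of the 9 SS, YSR and YSS libraries of letter R. The choice kept each member below CT in each of the 16 libraries, so that a split reaching the CT level could not appear there. The letters parted CT and SR in opposite directions, since letter L was the lower in CT and, as described next, the higher in SR.

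**Figure D2:**
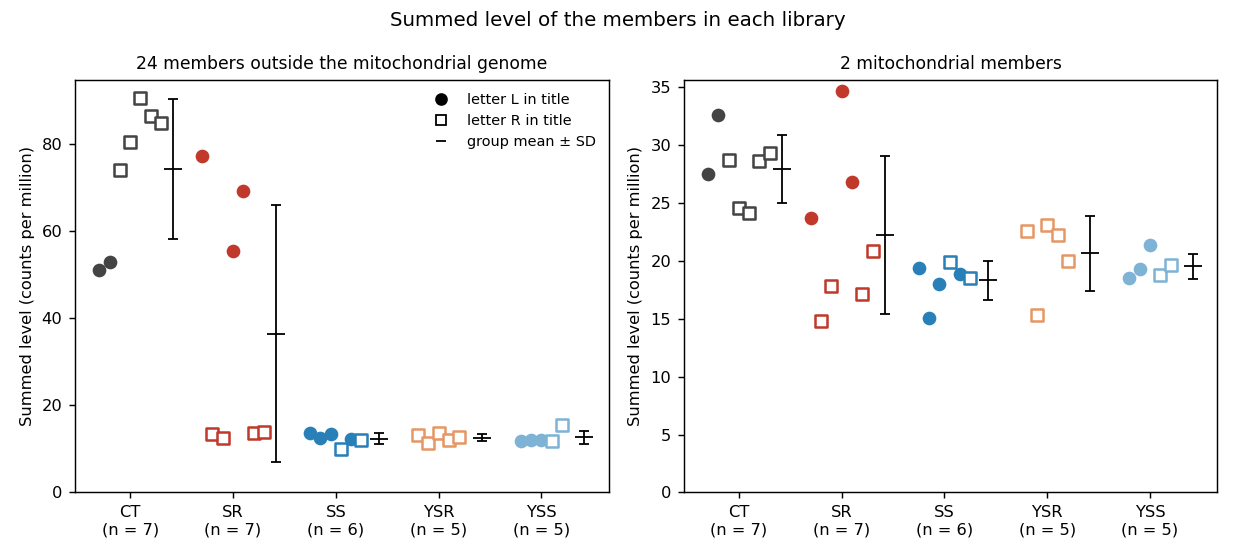
Summed level (CPM, linear axes from 0) of the 24 members outside the mitochondrial genome (left) and of the 2 mitochondrial members (right) in each library of the 5 groups, with filled circles for letter L, open squares for letter R and bars for the group mean ± SD. The 7 SR libraries fall at 2 levels on the left, 55.4 to 77.3 CPM for letter L and 12.5 to 13.8 CPM for letter R, and no library lies between 15.4 and 51.0 CPM.

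The SR libraries, taken singly, fell at the CT level or at the level of the 16 libraries, and none lay midway. The 24 members summed to 77.3 CPM in SR XIII-L09, 55.4 CPM in XII-L05 and 69.3 CPM in XII-L07, which is 104%, 74.5% and 93.3% of the CT mean. They summed to 13.4 CPM in XIII-R07, 12.5 CPM in XIII-R09, 13.7 CPM in XII-R05 and 13.8 CPM in XII-R07, or 16.9 to 18.5% of the CT mean. None of the 7 SR libraries lay near the SR mean of 36.5 ± 29.6 CPM (SD, n = 7). Both levels occurred within each cohort, with 1 high and 2 low libraries in XIII and 2 high and 2 low in XII.

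Member by member, the SR libraries of letter L exceeded each of the 16 SS, YSR and YSS libraries for nearly every gene. In XIII-L09 this held for 25 of 26 members (7.06% of the 16579 genes), in XII-L05 for 26 (7.34%) and in XII-L07 for 26 (4.83%). In the SR libraries of letter R the member counts were 3 in XIII-R07 (11.7%), 2 in XIII-R09 (6.72%), 4 in XII-R05 (13.6%) and 3 in XII-R07 (4.98%). The first 3 libraries held far larger shares of the members than of all genes. In the other 4 the members' shares of 7.7 to 15.4% were of the size of the background. The choice kept the members low in the 16 libraries, so that all genes are not a like yardstick for these shares. The CT minimum was reached by 24, 20 and 25 members in XIII-L09, XII-L05 and XII-L07. It was reached by 0, 0, 0 and 1 in XIII-R07, XIII-R09, XII-R05 and XII-R07. Above every CT library lay 2 members in XIII-L09, 2 in XII-L05, and 0 in XII-L07 and in each SR library of letter R.

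Each SR library of letter L lay above each of letter R for 25 of the 26 members, against a background of 2.17% of the 16579 genes. The exception was the mitochondrial member ENSRNOG00000029070, with 20, 31 and 29 counts in the 3 libraries of letter L and 11, 23, 16 and 11 in the 4 of letter R. For any single gene, an exact two-sided test of 3 against 4 libraries cannot give a p below 0.0571. The mitochondrial members together followed the same order, with 23.7 to 34.7 CPM in SR letter L and 14.8 to 20.9 CPM in SR letter R, against 27.9 ± 2.92 CPM (SD, n = 7) in CT and 15.1 to 23.1 CPM in the 16 libraries. Here the gap between the levels was small next to that of the other 24 members.

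**Figure D3:**
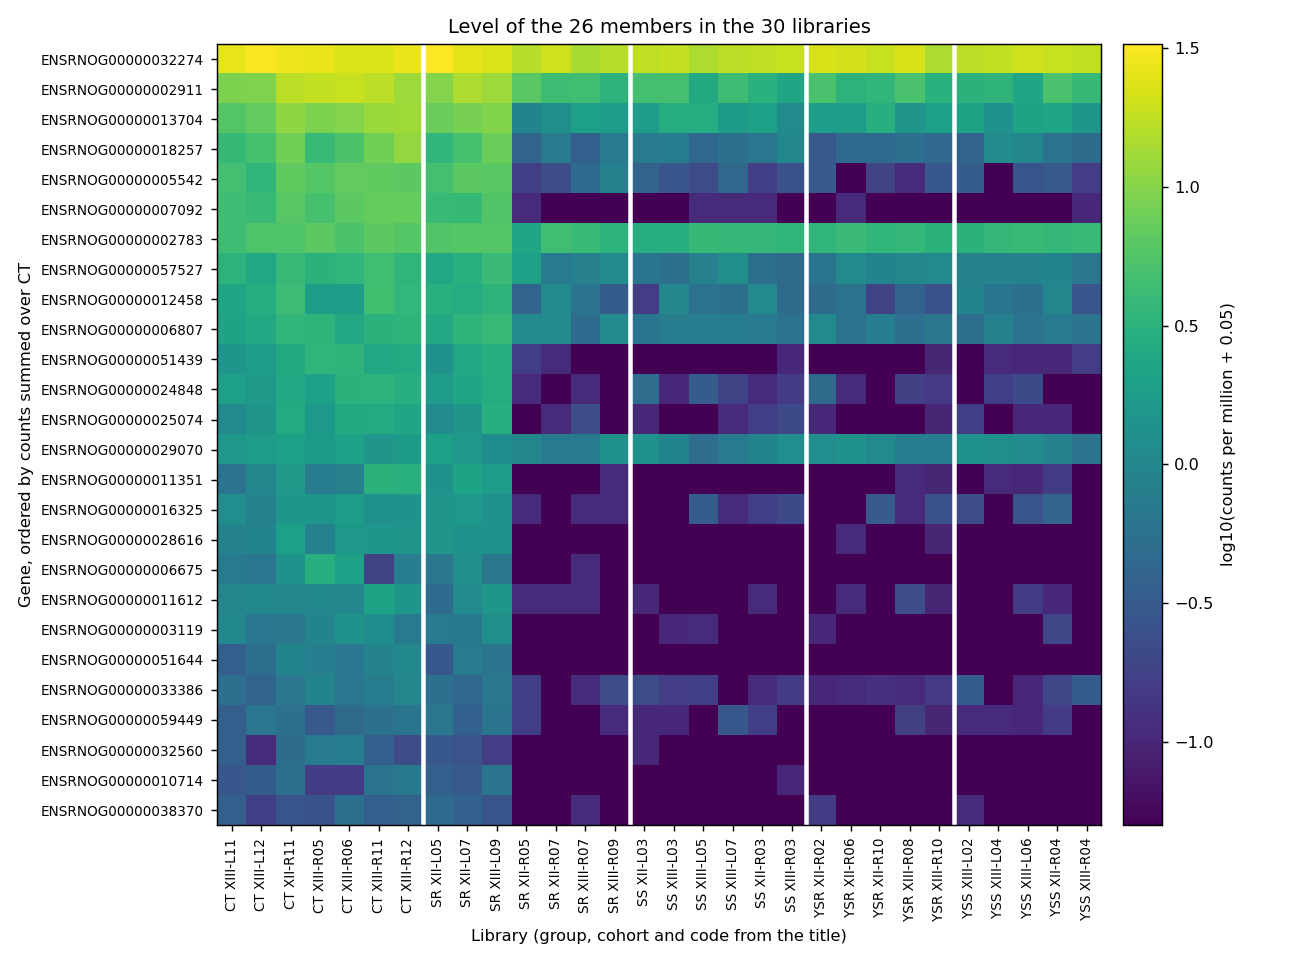
Level of the 26 members (rows, by counts summed over CT) in the 30 libraries (columns, by group, letter L before letter R, white lines between groups), coloured by log10(CPM + 0.05). The 3 SR libraries of letter L resemble the 7 CT libraries, and the 4 SR libraries of letter R resemble the 16 SS, YSR and YSS libraries.

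Group tests of SR were made with edgeR's quasi-likelihood test on 15797 genes of the whole table, with p-values adjusted by Benjamini-Hochberg over all of them. Of the 26 members, 22 passed the filter on low counts. Only 9 of the 26 would reach its level of about 0.575 CPM in at least 5 of the 23 libraries outside CT. The rest of the 22 passed through their CT values. The members were chosen to be high in CT and low in SS and YSR. The directions, log2 changes, p-values and counts below were all favoured by that choice. They are given with the share of all genes in the main fit as a description, and nothing about the members is read from them. That share was not counted under other settings. The 3 comparisons also share the SR libraries.

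Against CT, each of the 22 tested members had a lower fitted mean in SR, and 19 had an unadjusted p under 0.05, and 5.66% of all genes were lower at that p. The count of 19 fell to 11 without SR XIII-R07 and to 10 in a fit of CT and SR alone. At an adjusted p under 0.05 the test called 0 members and 0% of all genes (0 of 15797, with 1656 at an unadjusted p under 0.05). The median log2 change of the 22 members was -1.09, against 0.00 over all genes. ENSRNOG00000002911 had the smallest adjusted p of the members, 0.288, with a log2 change of -0.87 (SE 0.26).

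Against SS, all 22 members had higher fitted means in SR, and 20 had an unadjusted p under 0.05 (3.44% of all genes). The adjusted p was under 0.05 for 0 members and for 0% of all genes (0 of 15797, with 1178 at an unadjusted p under 0.05). The median log2 change was 2.47, also when the 4 members with 0 counts in SS were set to a bound from 3 counts over the group, and it was 1.49 over the 14 members with more than 3 counts in SS. ENSRNOG00000005542 differed by 3.48 on the log2 scale (SE 0.70) and ENSRNOG00000057527 by 1.61 (SE 0.32), each with an adjusted p of 0.0974, the smallest among the members, by edgeR's test. ENSRNOG00000007092 had the same adjusted p of 0.0974, with 3 counts in all over the 6 SS libraries. Leaving out SR XIII-R07, XIII-R09, XII-R05 or XII-R07 in turn brought 5, 4, 3 and 4 members under 0.05, and DESeq2 called 7. The share of all genes under 0.05 in those fits was not counted, so that these counts cannot be weighed.

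Against YSR, all 22 members again had higher fitted means in SR, and 19 had an unadjusted p under 0.05 (3.62% of all genes). The adjusted p was under 0.05 for 0 members and for 0.0253% of all genes. The median log2 change was 2.69, it was 2.66 with the 2 members at 0 in YSR set to their bound, and it was 1.66 over the 14 members with more than 3 counts in YSR. ENSRNOG00000005542 had the smallest adjusted p of the members by edgeR's test, 0.0534, with a log2 difference of 4.13 (SE 0.81). Without SR XIII-R07, XIII-R09, XII-R05 or XII-R07 the count was 5, 3, 4 and 3 members, and DESeq2 called 7. Here too the share of all genes was not counted, and these counts cannot be weighed. In all 3 comparisons the SR group held 3 libraries near CT and 4 near the 16 libraries, and its fitted mean lay between them.

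The proportions between the members were not the same in all CT libraries. Over the 7 CT libraries, the chi-square per degree of freedom of the counts was 3.10 for the 24 members, 4.15 with the mitochondrial members included and 3.42 for the 24 without the fibrinogen interval. The shares of the members thus varied among CT libraries beyond counting noise, although those within the fibrinogen interval did not. Single CT libraries set against the others summed gave values from 1.06 in XII-R11 to 6.37 in XIII-R05.

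Members of unequal behaviour stood behind this spread. ENSRNOG00000006675 had 11, 10, 55, 37, 2, 13 and 24 counts in the 7 CT libraries, so that its share of the members was highest in XIII-R05 and lowest in XIII-R11, where its 2 counts were under the floor. ENSRNOG00000011351 went another way, with 9, 16, 14, 15, 52, 53 and 29 counts and its highest share in XIII-R11. Both were picked out after their values were seen. Among the abundant members, the share of ENSRNOG00000018257 ran from 5.23 to 13.2%, a 2.52-fold range, while that of ENSRNOG00000013704 ran from 11.3 to 14.9%.

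The SR libraries of letter L kept these proportions within the CT range for most members. In XIII-L09, 22 of the 24 shares lay between the lowest and highest CT share, in XII-L07 20 and in XII-L05 16. Their chi-square per degree of freedom against the summed CT counts was 1.56, 1.35 and 1.95, below that of 4 of the 7 CT libraries against the rest. In XIII-R07, XIII-R09, XII-R05 and XII-R07, 6, 4, 3 and 1 of the 24 shares lay in the CT range, with values of 9.90, 7.82, 10.2 and 12.5. In these libraries ENSRNOG00000002911 alone took 25.8 to 44.8% of it, against 14.5 to 24.5% in CT.

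**Figure D4:**
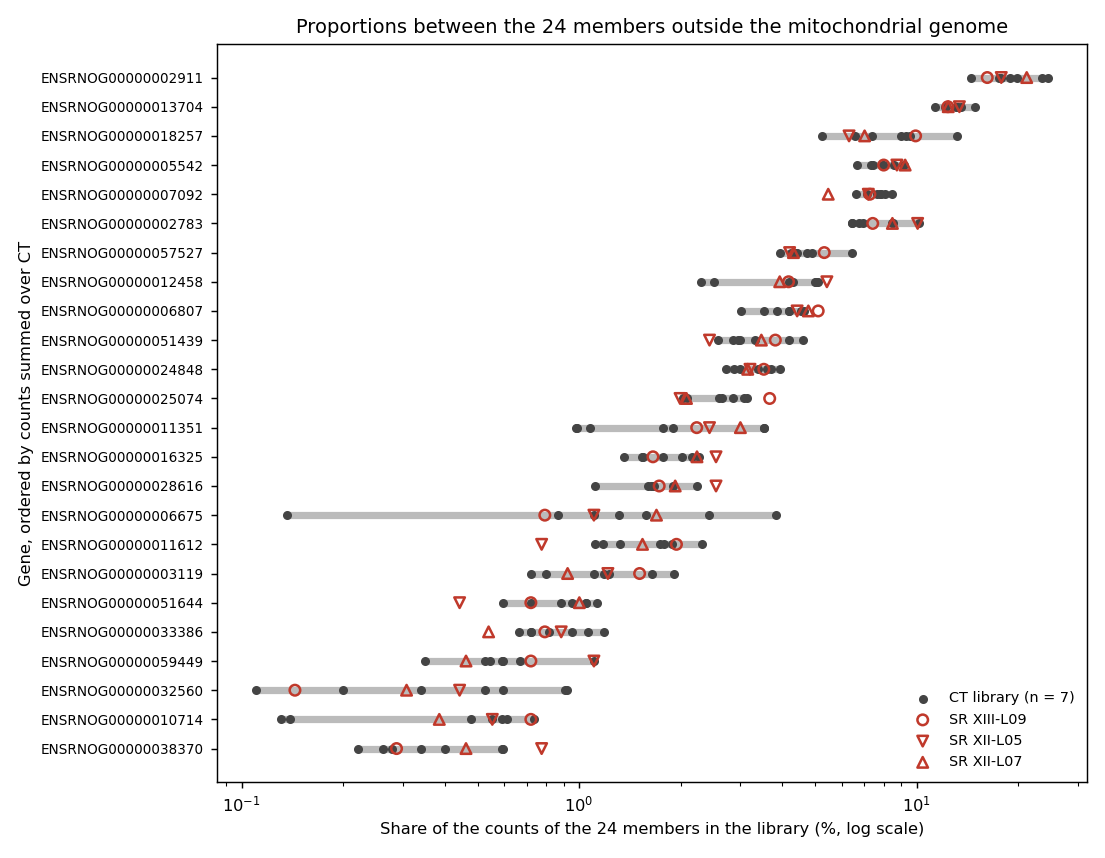
Share of each of the 24 members outside the mitochondrial genome in their summed counts (horizontal axis, %, log scale) in the 7 CT libraries (dark points, grey bar for their range) and in the 3 SR libraries of letter L (open red symbols). Most red symbols lie on the grey bars, 22, 16 and 20 of 24 for XIII-L09, XII-L05 and XII-L07, and the widest bar is that of ENSRNOG00000006675.

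At the limit of 30 CT counts, the members with the fewest counts were ENSRNOG00000032560 with 49, ENSRNOG00000010714 with 42 and ENSRNOG00000038370 with 35. Another 4 genes kept the CT libraries apart with fewer counts, of which ENSRNOG00000037188 and ENSRNOG00000009921 had 21 each and ENSRNOG00000000969 had 19. At the limit of no overlap, the lowest CT level was 1.04 times the highest of the 16 libraries for ENSRNOG00000059449 and 1.03 times for ENSRNOG00000032560 and ENSRNOG00000032274. Just outside, the ratio was 0.999 for ENSRNOG00000032882, 0.983 for ENSRNOG00000011611 and 0.982 for ENSRNOG00000017883, where 1, 3 and 4 of the 16 libraries reached the lowest CT level. The edge was thus close for some low-count and for mitochondrial features, and also for the abundant ENSRNOG00000002783 at 1.06. It was wider for the low-count ENSRNOG00000010714 at 1.97. In the fibrinogen interval this ratio was 3.49 for ENSRNOG00000024848, 6.59 for ENSRNOG00000025074 and 65.5 for ENSRNOG00000007092.

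Outside the members, the 5 genes most like them by Pearson correlation of log2 CPM with the members' mean over the 30 libraries were ENSRNOG00000017381 (r = 0.81), ENSRNOG00000017223 (r = 0.75), ENSRNOG00000023733 (r = 0.72), ENSRNOG00000014964 (r = 0.68) and ENSRNOG00000032882 (r = 0.68). These values are a description, since the libraries fall at 2 levels of the members and share their depth and preparation. ENSRNOG00000017381 had 1.64 ± 0.445 CPM (SD, n = 7) in CT and 0.532 ± 0.256 CPM (SD, n = 16) in the 16 libraries. It had 1.72 to 1.97 CPM in SR letter L and 0.302 to 0.472 CPM in SR letter R. ENSRNOG00000017223 had 1.06 to 1.35 CPM in SR letter L against 0.116 to 0.472 CPM in SR letter R. In both genes the SR libraries were parted as in the members, and the CT libraries overlapped the 16 libraries. ENSRNOG00000023733 had 0.612 to 0.854 CPM in SR letter L against 0.302 to 0.472 CPM in SR letter R. ENSRNOG00000014964 was parted only narrowly, at 4.89 to 6.43 CPM against 3.42 to 4.78 CPM. The SR letters overlapped in the mitochondrial ENSRNOG00000032882, at 43.9 to 78.5 CPM for L and 34.2 to 63.2 CPM for R.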

How the data were processed

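Total RNA of 30 rats was sequenced after Oligo(dT) enrichment. The authors deposited raw counts per Ensembl gene, 1 table per rat, with gene positions and lengths, and did not normalize them. The submitters' processing notes name bcl2fastq 2.17, Trimmomatic 0.36, STAR 2.5.2b and featureCounts of Subread 1.5.2. The genome build and the use of strand are not given in the sources used here, so that antisense or overlapping genes may share reads.

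Groups, cohorts and letters were read from the sample titles. CPM were computed on the library total for the choice of members and all sums, with 14584340 to 19997820 counts per library and a floor of 3 counts. The members and the lists were chosen with earlier results of these data known. Differences of SR from CT, SS and YSR were tested with edgeR 4.0.16 in R 4.3.3 (TMM, filterByExpr, quasi-likelihood test, all 30 libraries, group as the only factor), which kept 15797 genes. Log2 CPM for the likeness of genes used a prior count of 2. The scripts were tested on simulated data. The p-values set each group difference against the spread between rats within groups, estimated over all 30 libraries together. SR, whose libraries lay at separate levels, shared this estimate with the other groups. Chi-square values cover counting error only, and reads without molecular identifiers are not independent molecules.

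Given in full were the members within 100 kb of ENSRNOG00000007092, the 10 members of highest mean CPM in CT, the genes at the limits of the choice and the 5 genes most like the members. Marker genes were to be named too, but 0 identifiers matched a symbol. Alternatives were DESeq2 1.42.0, other size factors, filters, count minimums, cohort XIII alone, the cohort as a covariate, the compared groups alone, counts per kb, and each library left out. The mitochondrial members left out, and counts above the mean of the 16 libraries, were alternatives for the proportions chosen after seeing the data. The sequences are RefSeq promoters of GRCr8, for 3 of 3 fibrinogen genes by symbol, and the first of 2 rows was used for Fga.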

Additional observations from a re-analysis of the deposited data

Results flagged for a closer look

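In 70 groups of 5 to 7 libraries, a library at the edge was tested for its distance from the others, and 6 stood apart. About 1 in 20, or 3.5, would stand apart by chance if the groups were independent. They share libraries, so that 6 and 3.5 cannot be weighed against each other. The summed level of the 24 members outside the mitochondrial genome was 15.4 CPM in YSS XII-R04, against 11.7 to 12.1 CPM in the other 4 YSS libraries and 51.0 CPM in the lowest CT library. ENSRNOG00000024848 of the fibrinogen interval had 0.422 CPM, or 8 counts, in YSR XII-R02, against 0 to 0.120 CPM in the other YSR libraries. ENSRNOG00000007092 had 1 count, 0.0584 CPM in YSR XII-R06 and 0.0561 CPM in YSS XIII-R04, where the other libraries of each group had 0, which is under the floor of 3 counts. The mitochondrial member ENSRNOG00000032274 had 14.6 CPM in SS XIII-L05, against 17.3 to 18.8 CPM in the other SS libraries. ENSRNOG00000057527 had 0.617 CPM in YSS XIII-R04, against 0.816 to 0.886 CPM in the other YSS libraries.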

How the results depend on the processing

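The choice gave 26 genes, 26 with TMM (25 shared) and 27 with median-ratio scaling (26 shared), 30 with a minimum of 10 counts, 20 with 100, 29 in cohort XIII alone, and 25 to 30 with each library left out. Members lower in SR than CT at an unadjusted p under 0.05 numbered 19, but 10 in a fit of only these groups, 11 with DESeq2, and 11 to 22 with each library left out, the lowest without SR XIII-R07. At an adjusted p, SR and CT differed for 0 members under each alternative. For SR against SS the adjusted count was 0, but 7 with DESeq2 and 0 to 5 with each library left out: 5 without SR XIII-R07, 4 without XIII-R09, 3 without XII-R05 and 4 without XII-R07, all of letter R. For SR against YSR it was 0, but 7 with DESeq2, 1 over all genes with at least 1 count, and 0 to 5 with each library left out: 5, 3, 4 and 3 without these SR libraries in turn, and 1 without CT XIII-L12, SS XIII-L05 or SS XII-L03. The median over members of the highest to the lowest CT share was 1.95, 2.58 per kilobase, 1.84 without the mitochondrial members, 2.01 for counts above the mean of the 16 libraries, and 1.78 to 1.94 with each CT library left out. The cause of these shifts was not tested. The choice favoured the counts of members called, and the share of all genes called was not counted under the alternatives. No paired analysis was possible because the groups share no replicate numbers in the titles, and the sources used here do not say which yoked rat belonged to which METH rat. Genes with 3 or fewer counts in SS or YSR carry no fold change of their own here, but the medians over all 22 tested members include them. Depth limits the members with few counts.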
